A study of Mus musculus with 18 samples.

Results

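Dmtf1, Tcf4, Tcfl5, Lrrfip1, Ppp4r2 and Klhl13 encode regulators of transcription, of protein phosphatase 4 and of protein ubiquitination. These 6 genes were chosen by their lower RNA level with cyclosporin A (CsA) or with FGF2 in cultured mouse germ cells. They are 6 of 34850 genes with a value in 18 libraries, and all 6 were among the 9561 genes tested, those that reached 10 RPM (reads scaled to the library total) in at least 2 libraries. The values that chose them came from germ cells cultured with CsA, with FGF2 or in the base medium, so for these 6 genes every difference that uses those libraries is given as a description with no test. The 6 genes were tested between uncultured groups and, in embryo germ cells, between CsA and the base medium, a comparison that the choice may also have used. Other genes of 8 lists were tested in all of these comparisons.

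Expression was measured by SC3-seq, a method that amplifies cDNA and reads the 3' ends of polyadenylated RNA. Each library used 1 ng of RNA, and there were 9 groups of 2 libraries. Embryonic stem cells (ESC, kept with LIF and inhibitors of MEK and GSK3), epiblast-like cells (EpiLC, induced with activin A and FGF2) and primordial germ cell-like cells after 4 days of induction (d4 PGCLC, induced with BMP4, LIF, SCF and EGF) were C57BL/6 and carried the Blimp1-mVenus and Stella-ECFP reporters. The ESC and EpiLC were unsorted, and the d4 PGCLC were sorted for mVenus. Cells labelled d4c7 were PGCLC cultured for 7 further days on m220-5 feeder cells with SCF, 10 µM forskolin and rolipram. They were B6D2F1 with the same reporters, and mVenus was sorted. The d4c7 groups were this base culture (FR10), and the culture with CsA, with FGF10 or with FGF2. E9.5c5 groups were germ cells from embryos at embryonic day 9.5, B6D2F1 x C57BL/6 with a Stella-EGFP reporter, sorted for EGFP and cultured for 5 days in FR10 or with CsA. The labels give no dose of CsA, FGF2 or FGF10, and do not say whether a library came from 1 clone or from pooled embryos. The protocol calls the replicates of the cultured groups biological; for ESC, EpiLC and d4 PGCLC the spread between libraries may be technical.

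Primordial germ cells are the embryonic founders of sperm and eggs, and in culture they depend on SCF and on raised cAMP, which forskolin and rolipram provide. CsA binds cyclophilin and blocks the phosphatase calcineurin, whose best known targets are the NFAT transcription factors, while FGF2 signals through receptor tyrosine kinases and MAP kinase. DMTF1 is a Myb-like factor that activates the Arf promoter, and TCF4 is an E protein, a basic helix-loop-helix factor whose DNA binding is held back by Id proteins. TCFL5 is a basic helix-loop-helix factor of male germ cells, and LRRFIP1 is a nucleic acid binding protein that represses GC-rich promoters and partners with Flii. PPP4R2 is a regulatory subunit of protein phosphatase 4, and KLHL13 is a substrate adaptor of the CUL3 ubiquitin ligase that helps to place Aurora B in mitosis.

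The labelled cell types were compared with marker genes. All 5 naive pluripotency markers were at 10 RPM or more in both ESC libraries, and all 4 epiblast markers in both EpiLC libraries. Of 9 germ cell markers (Prdm1, Prdm14, Tfap2c, Dppa3, Nanos3, Kit, Dnd1, Itgb3 and Fut4), 8 were at 10 RPM or more in both libraries of the d4 PGCLC and of every cultured group but FGF2, where 7 were. In ESC 4 of the 9 were, and in EpiLC 1 was. Among cultured groups Prdm1 fell short of 10 RPM with FGF2 alone, where it was at 26.3 and 9.96 RPM. The list summed to 2076 to 2089 RPM in d4c7 FR10 libraries, 1940 to 2072 with CsA, 924 to 1121 with FGF2 and 1303 to 1432 with FGF10. Dppa3 made up most of each of these sums. With CsA, Dppa3 lay above FR10, while Kit, Dnd1 and Prdm1 lay below it and the other markers of the list overlapped it. Kit was at 230 and 182 RPM in FR10 and at 71.8 and 89.4 with CsA. Later germ cell markers (Dazl, Ddx4, Mael and Sycp3) summed to 859 to 1003 RPM in d4c7 FR10, 391 to 539 with CsA and 897 to 1040 with FGF2. Dazl alone was at 724 to 881, 304 to 462 and 844 to 954 RPM in these groups. With FGF2, Ddx4 (21.1 to 45.3 RPM) and Mael (18.2 to 31.2) lay below FR10 (73.5 to 85.6 and 37.6 to 42.6), while Dazl and Sycp3 overlapped it. All 4 were also at 10 RPM or more in both EpiLC libraries, where they summed to 118 to 124 RPM. The 18 feeder and fibroblast markers summed to 860 to 931 RPM in d4c7 FR10, 648 to 784 with CsA and 277 to 569 with FGF2, with Lum and Thy1 at 0 in all d4c7 libraries and Pdgfra at 0 with CsA and with FGF2. Fn1 and Sparc made up most of these sums, and the list was highest in ESC, at 1538 to 1593 RPM. Without these 2 genes, left out after their values were seen, it summed to 7.77 to 7.82 RPM in ESC, 223 to 235 in d4c7 FR10, 45.6 to 178 with CsA and 55.7 to 109 with FGF2. The part of these shifts in the results below was not tested. Inferred depth ran from 2129404 to 7547673 reads a library, at which 3 reads equal 0.397 to 1.41 RPM. Replicates differed by a median of 0.19 to 0.29 on the log2 scale in 6 groups, and by 0.47, 0.43 and 0.60 in d4c7 FGF2, E9.5c5 FR10 and E9.5c5 CsA. The second libraries of these last groups are called below the 3 libraries that stand apart. The replicate differences alone do not say which of the 2 libraries in a group departs.

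In the mouse genome (RefSeq genes, GRCm38.p6) Lrrfip1 lies at chr1:90996930-91128944, Tcfl5 at chr2:180621956-180642691, Dmtf1 at chr5:9118868-9161806, Ppp4r2 at chr6:100833620-100869934 and Klhl13 at chrX:23219271-23365161. All of these are protein coding genes. Promoter windows of 300 bases, from 250 bases before to 50 after a start site, were matched for 5 of the 6 genes in RefSeq; Lrrfip1 had 2 windows and Klhl13 had 5. Because the base medium raises cAMP, the windows were searched on both strands for TGACG, the core of the cAMP response element, which also lies within the full element TGACGTCA. The core was found in Dmtf1, Lrrfip1 and Ppp4r2 and in 20.8% of all 32851 windows (23.1% of 27025 genes); Tcfl5 and Klhl13 windows did not hold these letters. The windows with the core are shown 5' to 3' with its bases in capitals, as each is on the gene's strand.
Dmtf1: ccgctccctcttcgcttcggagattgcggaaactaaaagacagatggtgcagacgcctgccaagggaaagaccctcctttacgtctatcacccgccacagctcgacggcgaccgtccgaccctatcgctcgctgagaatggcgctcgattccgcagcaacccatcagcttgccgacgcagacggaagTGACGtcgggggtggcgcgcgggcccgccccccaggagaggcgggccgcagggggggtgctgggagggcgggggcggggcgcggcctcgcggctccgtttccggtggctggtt
Ppp4r2: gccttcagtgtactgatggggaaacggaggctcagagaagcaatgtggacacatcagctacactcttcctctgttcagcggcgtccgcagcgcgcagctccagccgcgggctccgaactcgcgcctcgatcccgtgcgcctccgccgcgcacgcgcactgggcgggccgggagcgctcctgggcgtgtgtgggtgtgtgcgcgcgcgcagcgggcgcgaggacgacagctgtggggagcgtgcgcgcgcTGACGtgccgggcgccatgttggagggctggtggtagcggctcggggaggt
Lrrfip1: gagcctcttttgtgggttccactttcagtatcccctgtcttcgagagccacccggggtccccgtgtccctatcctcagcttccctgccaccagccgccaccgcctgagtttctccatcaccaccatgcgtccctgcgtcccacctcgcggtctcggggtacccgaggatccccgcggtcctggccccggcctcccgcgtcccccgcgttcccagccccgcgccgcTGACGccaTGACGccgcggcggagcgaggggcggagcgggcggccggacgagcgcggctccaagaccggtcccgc
These windows lie at chr5:9161727-9162026 on the minus strand for Dmtf1, chr6:100833388-100833687 on the plus strand for Ppp4r2 and chr1:90998477-90998776 on the plus strand for the first Lrrfip1 start. The core began 63 bases before the start site in Dmtf1 (position -63), at position -1 in Ppp4r2, and at -25 and -17 in Lrrfip1. The full element was in none of the 5 genes and in 1.79% of windows. The windows of Dmtf1, Ppp4r2 and Tcfl5 held 36, 40 and 35 CpG dinucleotides, the 2 of Lrrfip1 36 and 21, and the 5 of Klhl13 0 to 16, against a median of 7 over all windows. All 5 genes had the GC box GGGCGG, which 35.7% of windows hold, and none had TATAAA, which 13.6% hold. The NFAT core GGAAA and the E-box CANNTG were searched too. Both were in all 5 genes, and in 61.3% and 72.3% of windows. The E-box form CACGTG was in none of the 5 and in 7.15% of windows. The ETS core CCGGAA was in Dmtf1 and Klhl13 and in 14.9% of windows. A match of letters is a description and no evidence of binding.

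Dmtf1 had its highest level in d4 PGCLC and its lowest with FGF2. It stood at 70.9 and 42.1 RPM in the 2 d4c7 FR10 libraries, 13.9 and 16.0 with CsA, 9.89 and 8.75 with FGF2, and 34.9 and 43.1 with FGF10. The CsA and FGF2 libraries lay below every FR10 library, while FGF10 overlapped FR10. The difference from FR10 on the log2(RPM + 1) scale was -1.81 ± 0.29 (SE, n = 2 against 2, spread from all 18 libraries) with CsA, -2.43 ± 0.29 with FGF2 and -0.48 ± 0.29 with FGF10. FR10 libraries themselves differed, so that the group mean was 56.5 ± 20.3 RPM (SD, n = 2). In E9.5c5 cells Dmtf1 was at 27.2 and 23.6 RPM in FR10 and at 38.3 and 25.3 with CsA, groups that overlapped.

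Before culture, Dmtf1 was at 40.9 and 38.5 RPM in ESC, 48.6 and 50.7 in EpiLC and 87.3 and 85.2 in d4 PGCLC. It was higher in d4 PGCLC than in ESC by 1.10 ± 0.29 (SE) on the log2 scale (adjusted p = 0.00808, limma) and higher than in EpiLC by 0.79 ± 0.29 (adjusted p = 0.0427, limma). The median of all genes was 0.34 higher in d4 PGCLC than in EpiLC. After scaling each library to median ratios of genes the Dmtf1 differences were 0.43 from EpiLC and 0.74 from ESC (adjusted p = 0.243 and 0.0503, limma), which ended both calls. Leaving out any of the 4 EpiLC and d4 PGCLC libraries also ended the EpiLC call (adjusted p = 0.126 to 0.155, limma), and leaving out the second ESC or the first d4 PGCLC library ended the ESC call (adjusted p = 0.0610 and 0.0554, limma). Dmtf1 shares 42186 bases with Tmem243 on the opposite strand, and the strand used in counting is not given in the sources used here. Tmem243 was at 0 to 2.45 RPM in the 18 libraries.

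Tcf4 was also low with CsA and lower still with FGF2. It stood at 15.1 and 17.3 RPM in d4c7 FR10, 4.05 and 6.65 with CsA, 0.761 and 0.972 with FGF2, and 14.5 and 14.7 with FGF10. The FGF2 libraries were the lowest of all 18 for this gene and the CsA libraries came next. The log2 difference from FR10 was -1.46 ± 0.36 (SE) with CsA, -3.20 ± 0.36 with FGF2 and -0.14 ± 0.36 with FGF10. In inferred reads, FGF2 libraries held 2 and 4 reads against 39 and 50 in FR10, which is 18.3-fold lower per library read, with an exact 95% counting interval of 8.06 to 51.1 that covers counting error only. Of the 9561 genes, 0.0837% lay lower than Tcf4 in FGF2 against FR10 and 1.41% lay lower in CsA against FR10, as a description of the contrasts that chose it.

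In other groups Tcf4 was at 27.8 and 25.9 RPM in ESC, 15.0 and 19.7 in EpiLC and 33.3 and 30.7 in d4 PGCLC. None of the 3 differences between these groups passed the test; d4 PGCLC against EpiLC was 0.86 ± 0.36 (SE) with an adjusted p of 0.0664 in limma. That difference passed under 6 alternatives, among them the uncultured libraries alone, voom and a pseudocount of 10 RPM (adjusted p = 0.00837 to 0.0333), and not with median-ratio scaling (0.51, adjusted p = 0.292, limma). In E9.5c5 cells it was at 20.4 and 14.8 RPM in FR10 and 14.5 and 11.5 with CsA, a log2 difference of -0.40 ± 0.36 (adjusted p = 0.810, limma; 95% interval -1.16 to 0.35).

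**Figure D1:**
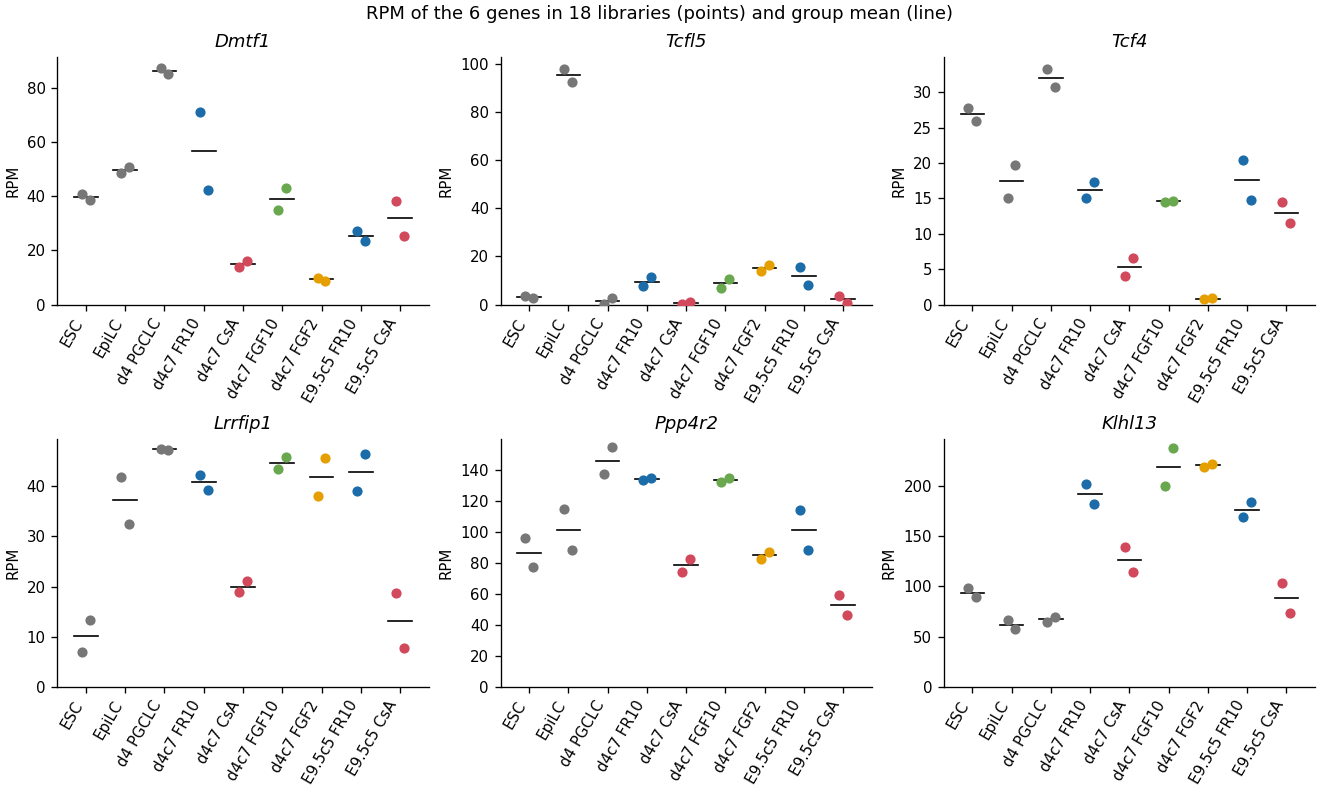
RPM of each gene (vertical axis, linear from 0) in 9 groups (horizontal axis), with a point for each library and a line at the mean of 2; colours mark FR10 (blue), CsA (red), FGF10 (green), FGF2 (orange) and uncultured groups (grey). Dmtf1 and Tcf4 are lowest in the FGF2 libraries, Tcfl5 is at 92.5 RPM or more in EpiLC and at 16.5 RPM or less elsewhere, and Klhl13 is at 169 RPM or more in every FR10, FGF10 and FGF2 library.

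Tcfl5 was lower with CsA but not with FGF2. It stood at 7.74 and 11.4 RPM in d4c7 FR10, 0.289 and 0.906 with CsA, 14.1 and 16.5 with FGF2, and 7.04 and 10.7 with FGF10. The CsA libraries lay below all 6 other d4c7 libraries and the FGF2 libraries lay above them. The log2 difference from FR10 was -2.73 ± 0.54 (SE) with CsA, 0.64 ± 0.54 with FGF2 and -0.10 ± 0.54 with FGF10. CsA libraries held 1 and 3 inferred reads against 20 and 33 in FR10, 16.4-fold lower with an exact 95% counting interval of 6.03 to 62.2, so that the level with CsA is near the limit of detection. Of the 9561 genes, 0.0314% lay lower still in CsA against FR10.

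Tcfl5 also had the largest shift of the 6 genes before culture. It was at 3.71 and 2.59 RPM in ESC, 97.9 and 92.5 in EpiLC and 0.470 and 2.70 in d4 PGCLC. EpiLC exceeded ESC by 4.55 ± 0.54 (SE) on the log2 scale (adjusted p = 1.57e-05, limma), and from EpiLC to d4 PGCLC the level fell by 5.37 ± 0.54 (adjusted p = 1.21e-06, limma). Both EpiLC libraries lay above all 16 others, and both calls held under every alternative run. The filter at 50 RPM adds no support among these, because Tcfl5 reached 50 RPM only in the 2 EpiLC libraries. Tcfl5 shares 234 bases with Col9a3 on the opposite strand; Col9a3 was at 6.19 to 7.05 RPM in EpiLC and at most 3.51 RPM elsewhere.

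Lrrfip1 was likewise lower with CsA and not with FGF2. It stood at 42.2 and 39.4 RPM in d4c7 FR10, 18.8 and 21.2 with CsA, 38.1 and 45.7 with FGF2, and 43.4 and 45.9 with FGF10. The CsA libraries were below all 6 others and the FGF2 libraries overlapped FR10. The log2 difference from FR10 was -0.995 ± 0.362 (SE) with CsA and 0.03 ± 0.36 with FGF2, whose 95% interval ran from -0.73 to 0.80. In E9.5c5 cells it was at 39.1 and 46.5 RPM in FR10 and 18.7 and 7.73 with CsA. Before culture it rose from ESC (6.89 and 13.3 RPM) to EpiLC (41.9 and 32.5), a difference of 1.83 ± 0.36 (adjusted p = 0.00176, limma), and it was higher in d4 PGCLC (47.4 and 47.3) than in ESC by 2.19 ± 0.36 (adjusted p = 0.000209, limma). EpiLC and d4 PGCLC differed by 0.35 ± 0.36, a sign that turned to -0.00252 with median-ratio scaling.

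Ppp4r2 was lower with CsA and with FGF2 than in FR10. It stood at 133 and 134 RPM in d4c7 FR10, 74.1 and 82.5 with CsA, 82.2 and 87.0 with FGF2, and 132 and 134 with FGF10. CsA and FGF2 libraries lay below every FR10 and FGF10 library and overlapped each other. The log2 difference from FR10 was -0.77 ± 0.21 (SE) with CsA, -0.66 ± 0.21 with FGF2 and -0.01 ± 0.21 with FGF10. With median-ratio scaling it was -0.54 with CsA and -0.35 with FGF2. In E9.5c5 cells the levels were 114 and 88.4 RPM in FR10 and 59.1 and 46.4 with CsA, which were the lowest of the 18 libraries. Among uncultured groups it was at 95.9 and 77.0 RPM in ESC, 114 and 87.8 in EpiLC and 137 and 154 in d4 PGCLC. The difference of d4 PGCLC from EpiLC was 0.53 ± 0.21 (adjusted p = 0.0550, limma). It passed under alternatives such as the uncultured libraries alone and array weights (adjusted p = 0.0160 and 0.00832, limma), and not with median-ratio scaling (0.17, adjusted p = 0.531, limma). The difference of d4 PGCLC from ESC was 0.75 ± 0.21 (adjusted p = 0.0109, limma), and it was 0.39 with median-ratio scaling (adjusted p = 0.146, limma). Without the second ESC or the second d4 PGCLC library that call was lost too (adjusted p = 0.126 and 0.0813, limma).

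Klhl13 had the smallest difference with CsA of the 6 genes and was above its uncultured levels in every d4c7 library. It stood at 203 and 182 RPM in d4c7 FR10, 139 and 114 with CsA, 220 and 222 with FGF2, and 201 and 238 with FGF10. The CsA libraries lay below the other 6. The log2 difference from FR10 was -0.60 ± 0.20 (SE) with CsA and 0.20 ± 0.20 with FGF2. In E9.5c5 cells it was at 169 and 185 RPM in FR10 and 104 and 73.9 with CsA. ESC were at 98.7 and 89.0 RPM, EpiLC at 66.1 and 57.6 and d4 PGCLC at 64.8 and 69.5; no difference among these groups passed the test (adjusted p = 0.0528 for EpiLC against ESC and 0.0756 for d4 PGCLC against ESC, limma). With median-ratio scaling both passed, lower by a difference of -0.60 and -0.83 (adjusted p = 0.0323 and 0.00222, limma). Both also passed with the uncultured libraries alone, with array weights and without the 3 libraries that stand apart (adjusted p = 0.00123 to 0.0182, limma). EpiLC against ESC passed too with the replicate block and with a filter at 50 RPM (adjusted p = 0.0478 and 0.0476, limma). Klhl13 shares 558 bases with the pseudogene Gm14523 on the same strand.

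**Figure D2:**
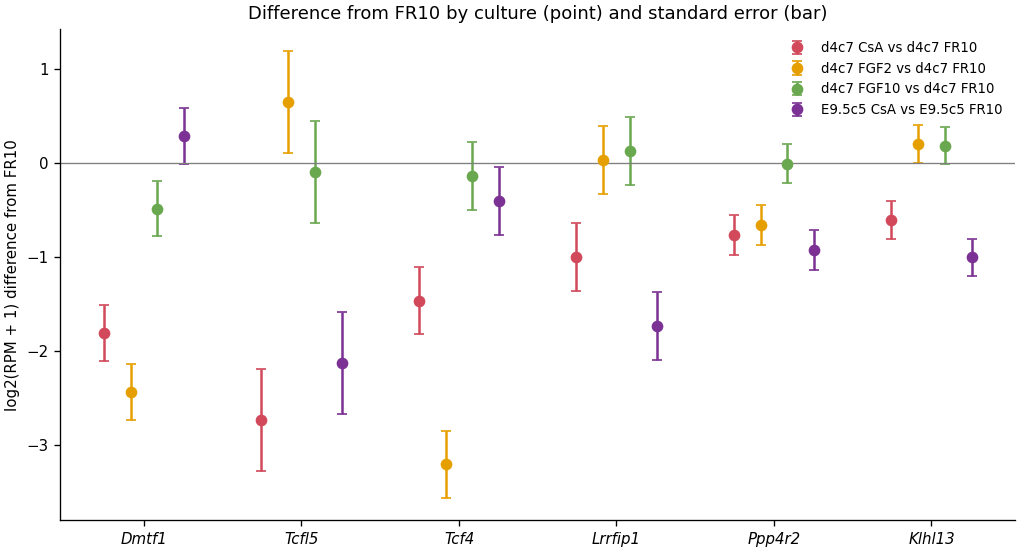
Difference from the FR10 group of the same kind of cell on the log2(RPM + 1) scale (vertical axis) for each gene (horizontal axis), with the standard error as bars. With FGF2 (orange) Dmtf1 and Tcf4 are at -2.43 and -3.20 and Tcfl5 at 0.64; with CsA in d4c7 cells (red) all 6 points are below 0.

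Set side by side, Dmtf1, Tcf4 and Ppp4r2 were lower than FR10 with CsA and with FGF2. Tcfl5, Lrrfip1 and Klhl13 were lower with CsA alone, a split read off the values that chose the 6 genes. With CsA, 0.502% of all genes tested lay lower than Dmtf1, 6.50% lower than Lrrfip1, 12.8% lower than Ppp4r2 and 20.6% lower than Klhl13. With FGF2, 0.732% lay lower than Dmtf1 and 31.4% lower than Ppp4r2. With CsA, 3 of the 6 were at least 1 log2 unit below FR10, and with FGF2 2 were, against 6.31% and 16.8% of all genes tested. Groups did not overlap and were lower for 6 of 6 with CsA and 3 of 6 with FGF2, against 41.6% and 43.2% of all genes. Since these contrasts chose the genes, nothing is read from those shares. The median difference of the 6 was -1.23 with CsA and -0.31 with FGF2, and that of all genes -0.24 and -0.33. Median-ratio scaling brought the medians of all genes to -0.02 and -0.03 and kept the sign of all 12 differences. The CsA and FGF2 comparisons share the FR10 libraries. In bulk libraries such as these, fewer cells with a transcript and less transcript per cell cannot be told apart.

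**Figure D3:**
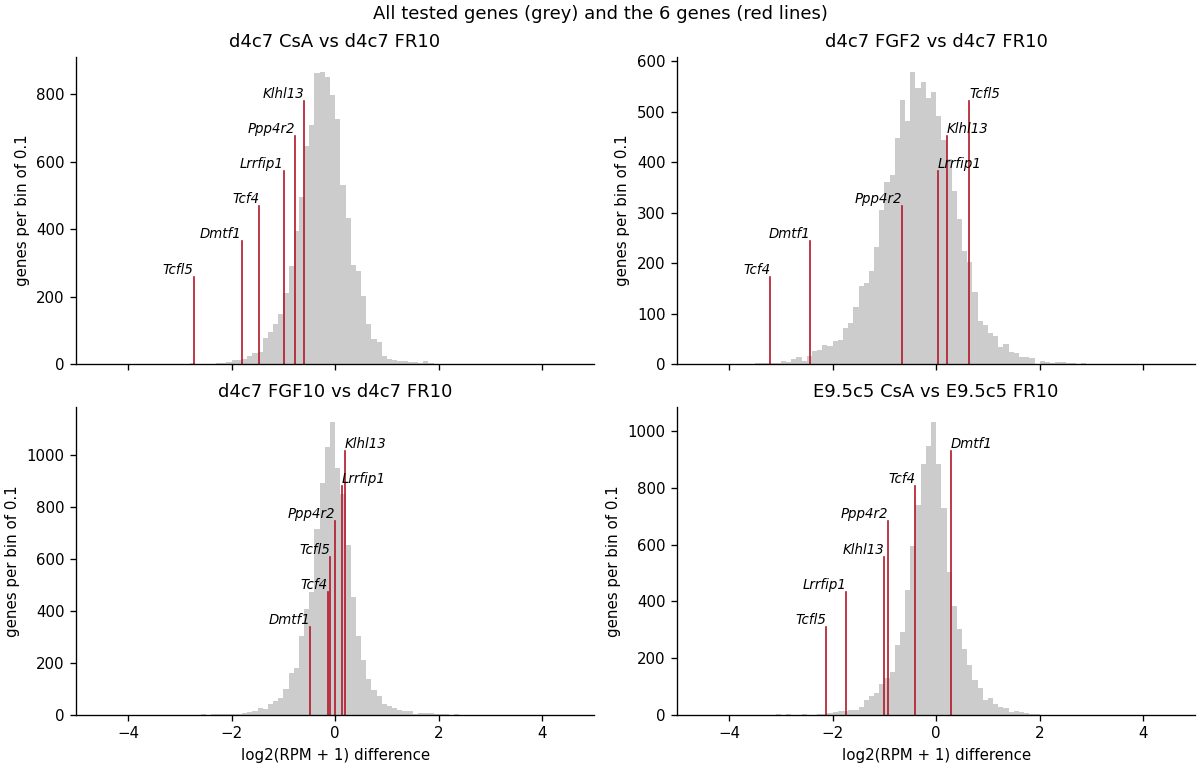
Number of tested genes (grey bars, vertical axis) by their log2(RPM + 1) difference (horizontal axis, bins of 0.1) in 4 comparisons, with the 6 genes as red lines whose height carries no value. With CsA in d4c7 cells the 6 lines span -2.73 to -0.60, and with FGF10 they span -0.48 to 0.18.

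The genes differed in direction between uncultured and cultured cells. From d4 PGCLC to d4c7 FR10 the log2 difference was 2.16 for Tcfl5 and 1.504 for Klhl13, and -0.94 for Tcf4, -0.65 for Dmtf1, -0.21 for Lrrfip1 and -0.12 for Ppp4r2. Strain differed together with culture in this comparison, and their effects cannot be told apart. With CsA, Tcfl5 at 0.289 and 0.906 RPM overlapped its d4 PGCLC level of 0.470 and 2.70, while Klhl13 stayed above its d4 PGCLC level. In FR10, E9.5c5 cells differed from d4c7 cells without overlap for Dmtf1 (25.4 against 56.5 RPM) and Ppp4r2 (101 against 134 RPM), and the other 4 genes overlapped; strain, reporter, origin and time of culture differ there.

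Embryo germ cells gave a comparison of CsA with FR10 in libraries of their own. The wording that chose the genes may cover them, so the values support nothing beyond themselves. Of the 6 genes, 5 were lower without overlap and Dmtf1 overlapped, against 16.8% of all genes lower without overlap. The log2 differences were -2.13 ± 0.54 (SE) for Tcfl5, -1.74 ± 0.36 for Lrrfip1, -1.004 ± 0.200 for Klhl13, -0.93 ± 0.21 for Ppp4r2, -0.40 ± 0.36 for Tcf4 and 0.29 ± 0.29 for Dmtf1. None of the 6 was called by limma (adjusted p = 0.181 to 0.847), nor was any gene (0%), although 703 of the 9561, 4 of the 6 among them, had an unadjusted p under 0.05; the voom method on inferred reads called 1 gene of 9561. Tcfl5 held 12 and 4 inferred reads with CsA and 46 and 33 in FR10, 6.15-fold lower with an exact 95% counting interval of 3.56 to 11.3. Without the first CsA library limma called 4 of the 6 (Tcfl5 at -2.83, Lrrfip1 at -2.32, Klhl13 at -1.24 and Ppp4r2 at -1.10) and 6.84% of all genes. That fit rests on the second CsA library, which is one that stands apart and is assumed to vary like other groups. Without the second CsA library, or without the 3 libraries that stand apart, 0 of the 6 were called, with 6 and 9 of 9561 genes called. The feeder list, with 5 markers at 0 in both CsA libraries, summed to 389 to 548 RPM in FR10 and to 787 and 214 with CsA, of which Fn1 was 628 and 147. Later germ cell markers summed to 134 to 804 RPM in FR10 and 69.4 to 437 with CsA. Their part in these values was not tested.

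Among uncultured groups Tcfl5, Lrrfip1, Dmtf1 and Ppp4r2 each passed a test at least once. EpiLC against ESC called 2 of 6 (Tcfl5 and Lrrfip1, both higher), where 16% of all genes were called. From EpiLC to d4 PGCLC 2 of 6 were called (Tcfl5 lower, Dmtf1 higher), where 39.6% of all genes were, and d4 PGCLC against ESC called 3 of 6 (Dmtf1, Lrrfip1 and Ppp4r2, all higher), where 34.5% were. With median-ratio scaling the calls of d4 PGCLC against EpiLC and ESC were 1 (Tcfl5) and 2 of 6 (Lrrfip1 and, lower, Klhl13). Of all 9561 genes, 3452 and 2886 were called there.

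The E protein genes other than Tcf4 and the Id inhibitor genes were higher after germ cell induction. All 6 genes of this list were higher in d4 PGCLC than in EpiLC by limma, where 39.6% of all genes were called. They were higher with median-ratio scaling too, and their median difference was 3.14 against 0.34 for all genes. Tcf4 itself was not called there (0.86, adjusted p = 0.0664, limma). Id3, an inhibitor of E protein dimers, was at 38.7 to 46.4 RPM in EpiLC and 549 to 578 in d4 PGCLC (difference 3.70, adjusted p = 5.60e-08). Id2 rose by 3.71 (adjusted p = 1.13e-05), Id1 by 3.39 (adjusted p = 0.000213) and Id4 by 2.89 (adjusted p = 0.000188), all by limma. In d4c7 FR10 Id2 was listed at 0 in both libraries. Tcf12, an E protein related to TCF4, stood at 76.0 to 79.8 RPM in d4c7 FR10, 24.2 to 29.8 with CsA, 21.9 to 32.7 with FGF2 and 37.4 to 39.2 with FGF10, so that all 6 treated libraries lay below FR10. It fell by 1.51 with FGF2 (adjusted p = 0.00977, limma), the 1 gene of the 6 called there, where 8.84% of all genes were called. Fitted to the 12 cultured libraries alone, neither this call nor any other FGF2 call of the 8 lists held. The Tcf12 difference with CsA was -1.50 (adjusted p = 0.0594, limma). In E9.5c5 cells Tcf12 was at 28.6 to 31.9 RPM in FR10 and overlapped this with CsA.

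**Figure D4:**
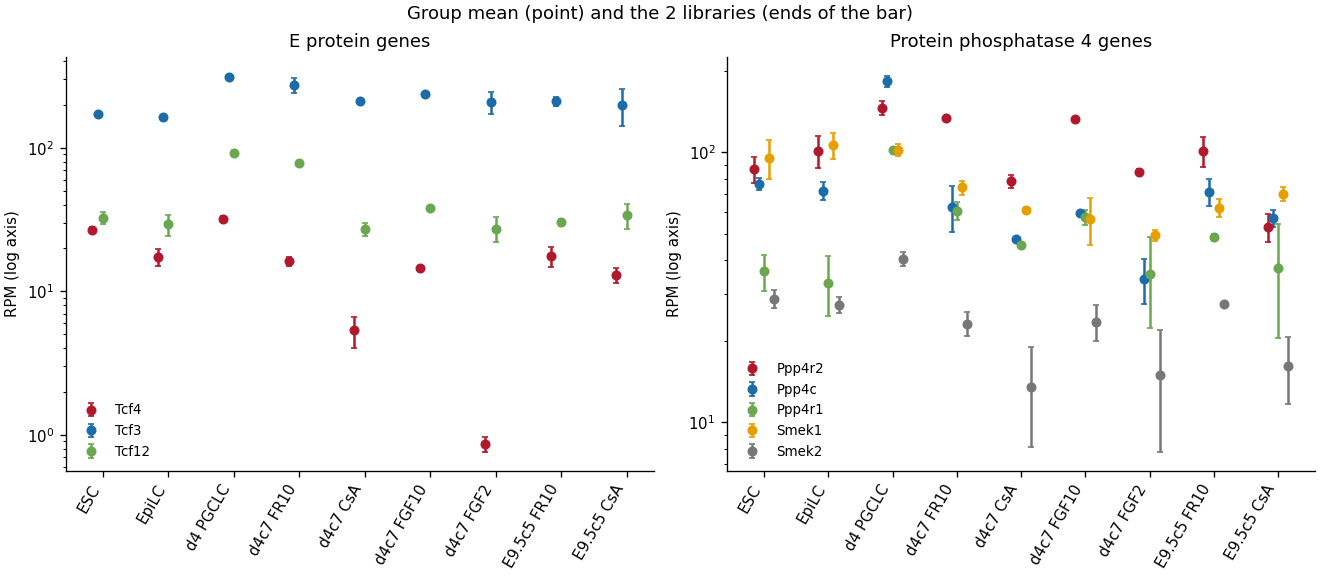
RPM on a log axis (vertical) of E protein genes (left) and of protein phosphatase 4 subunit genes (right) in 9 groups (horizontal axis), with the mean as a point and the 2 libraries as ends of the bar; heights of different genes are not compared. Tcf4 has a mean of 0.867 RPM with FGF2, and Tcf12 is at 76.0 RPM or more in both d4c7 FR10 libraries and at most 39.2 RPM in the d4c7 CsA, FGF2 and FGF10 libraries.

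Of the 10 measured genes of protein phosphatase 4 and its partners, 3 were higher and 1 lower in d4 PGCLC than in EpiLC (limma), a share near the 39.6% of all genes called there. The catalytic subunit Ppp4c rose by 1.34 (adjusted p = 0.000395), the regulatory subunit Ppp4r1 by 1.64 (adjusted p = 0.00361) and the substrate histone gene H2afx by 1.10 (adjusted p = 0.000853), while Ppp4r4 fell by 2.12 (adjusted p = 0.00411). With FGF2 against FR10, 2 of the 10 were lower, Ppp4c by a change of -0.87 (adjusted p = 0.0376) and H2afx by -0.99 (adjusted p = 0.0189), where 8.84% of all genes were called; with median-ratio scaling neither call held. With CsA 0 of the 10 were called or had an unadjusted p under 0.05, where 3 of 9561 genes (0.0314%) were by limma, 1317 had an unadjusted p under 0.05 and voom called 2.

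Cdkn2a, whose locus makes both Arf and Ink4a transcripts that are not separated here, was between 0 and 0.972 RPM in every library and was not tested. Trp53 rose from EpiLC to d4 PGCLC by 4.93 and Ccnd3 by 3.56, while Ccnd1 fell by 4.85 (adjusted p = 7.10e-09, 8.88e-08 and 7.54e-06, limma), among 6 higher and 3 lower of 11 in the list of DMTF1, ARF and p53 genes, where 39.6% of all genes were called. In EpiLC against ESC, 6 of the 11 were lower and 0 higher, where 16% of all genes were called. In d4 PGCLC against ESC, 2 were higher and 3 lower, where 34.5% of all genes were called. The median difference of the list there was -0.36, against 0.34 for all genes. With FGF2, 1 of 11 was called, the death gene Bbc3, higher by 1.80 (adjusted p = 0.0285), and with CsA 0 were; voom called 0 with FGF2. In the list of germ line helix-loop-helix and related genes, Figla, Sohlh1 and Mybl1 were not tested. The 7 tested were the germ line gene Sohlh2 and the MYC and MAX family genes Mycn, Myc, Max, Mga, Mxd3 and Mlx. Of these 7, 2 were higher and 1 lower in d4 PGCLC than in EpiLC, near the 39.6% of all genes. With FGF2, where 8.84% of all genes were called, 2 of the 7 were lower, Mycn by a change of -1.26 and its family's partner Max by -1.34 (adjusted p = 0.00949 and 0.0176, limma). With CsA the difference was -0.90 for Mycn and -2.07 for Myc (adjusted p = 0.139 and 0.158, limma).

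Of 24 measured genes of the CUL3 ligase and its adaptors, 5 were higher and 1 lower in d4 PGCLC than in EpiLC, or 4 and 3 with median-ratio scaling, a smaller share than the 39.6% of all genes. The KLHL13 partner Aurkb rose by 1.22 there (adjusted p = 0.000110) and was lower with FGF2 by a change of -0.85 (adjusted p = 0.0190, limma), among 2 lower and 1 higher of 24, where 8.84% of all genes were called. Of 6 measured partners and targets of LRRFIP1, 3 were higher in d4 PGCLC than in EpiLC, among them Flii by 1.28 (adjusted p = 0.00190), and 0 were called with FGF2 by limma and 1 by voom. Of 10 measured cAMP response genes, 2 were higher in d4 PGCLC than in EpiLC, Fos by 4.78 and Crtc2 by 3.12. The list of calcineurin and FGF genes held calcineurin subunit and NFAT genes as well as response genes. Of its 12 measured genes, 4 were higher in d4 PGCLC than in EpiLC. Both shares and the 3 of 6 LRRFIP1 genes stand beside 39.6% of all genes. With FGF2 Creb1 was the cAMP response gene called, lower by a change of -2.09 (adjusted p = 0.0172, limma). Of the calcineurin and FGF genes, the FGF readout Dusp6 (-2.61) and the calcineurin subunit gene Ppp3r1 (-2.31) were lower with FGF2. The FGF readout Etv4 (1.33) was higher (adjusted p = 0.0227, 0.0276 and 0.0469 for the 3 genes in turn, limma). With CsA, the FGF readout genes Etv4 and Dusp6 differed by -1.49 and -1.72 (adjusted p = 0.142 and 0.243). Of the 86 tested genes in the 8 lists, limma and voom called 0 with CsA in d4c7 or E9.5c5 cells, while 15 and 5 had an unadjusted p under 0.05 in limma. Without the 3 libraries that stand apart, the second of d4c7 FGF2, E9.5c5 FR10 and E9.5c5 CsA, 9 of the 86 were called lower with CsA in d4c7 cells, where 10.1% of all genes were called. Fitted to the 12 cultured libraries alone, none of the FGF2 calls of the 8 lists held, and 2 of 9561 genes were called in all.

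**Figure D5:**
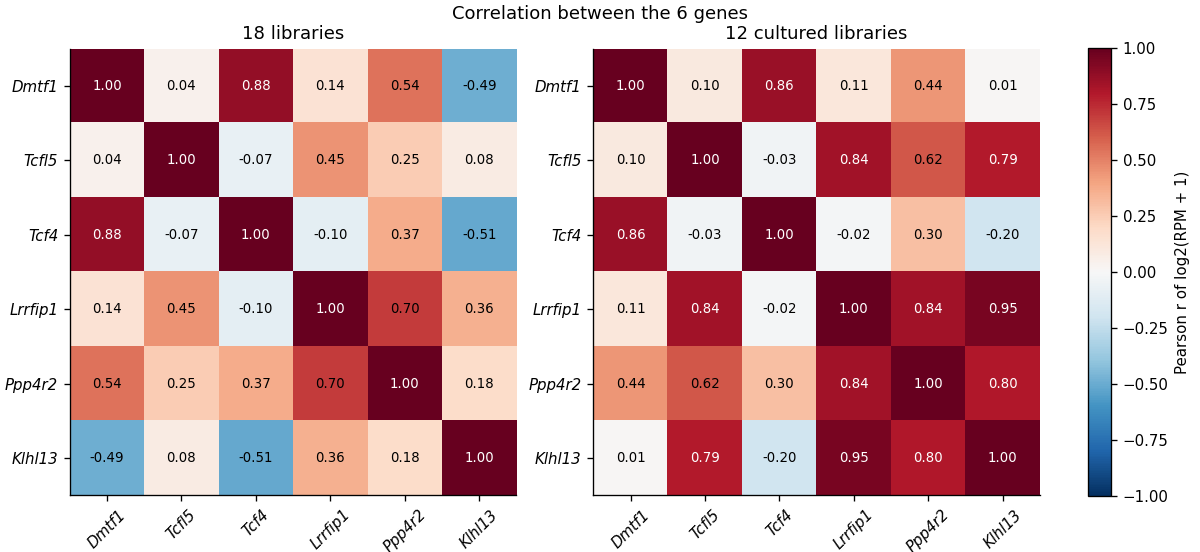
Pearson correlation (colour and printed value, scale from -1 to 1) of log2(RPM + 1) between each pair of the 6 genes over 18 libraries (left) and over the 12 cultured libraries (right). Dmtf1 and Tcf4 are at 0.88 and 0.86, and Lrrfip1 and Klhl13 at 0.36 and 0.95.

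Across libraries the correlations of the 6 genes are described without a test, because the libraries share groups, depth and the choice of the genes. Over the 18 libraries Dmtf1 and Tcf4 had the highest correlation of the 15 pairs (Pearson r = 0.88, Spearman rho = 0.80), and Tcf4 and Klhl13 had the lowest (r = -0.51). Over the 12 cultured libraries Lrrfip1 and Klhl13 reached 0.95, Tcfl5 and Lrrfip1 0.84, and Lrrfip1 and Ppp4r2 0.84. The tested genes with the most similar pattern over 18 libraries were Slmo2 (0.95), Rheb (0.94) and Alyref (0.93) for Dmtf1, and Oard1 (0.92), Lin9 (0.91) and Alyref (0.89) for Tcf4. For Tcfl5 they were Gdf1 (0.90), Chd9 (0.90) and Foxp1 (0.87), and for Lrrfip1 Wdr31 (0.88), Kars (0.87) and Lysmd2 (0.87). For Ppp4r2 they were Usp14 (0.91), Ift57 (0.91) and Pdcd10 (0.88), and for Klhl13 Grem1 (0.94), Zscan5b (0.92) and Smpdl3b (0.92).

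In order of level, Dmtf1 ran from FGF2 (9.32 ± 0.81 RPM, SD, n = 2) through CsA (15.0 ± 1.5) to d4 PGCLC (86.3 ± 1.6), and E9.5c5 FR10, E9.5c5 CsA, d4c7 FGF10 and EpiLC each overlapped their next higher neighbour. Tcf4 ran from FGF2 (0.867 ± 0.149) and CsA (5.35 ± 1.84) to d4 PGCLC (32.0 ± 1.9), a 37.0-fold span of group means. Tcfl5 ran from d4c7 CsA (0.598 ± 0.436), which overlapped d4 PGCLC (1.59 ± 1.58), to EpiLC (95.2 ± 3.8). Lrrfip1 ran from ESC (10.1 ± 4.5), which overlapped E9.5c5 CsA (13.2 ± 7.7), to d4 PGCLC (47.4 ± 0.1), and 5 groups from EpiLC to d4c7 FGF10 overlapped one after the other. Ppp4r2 ran from E9.5c5 CsA (52.7 ± 9.0) to d4 PGCLC (145.7 ± 12.1), with d4c7 CsA, FGF2, ESC, EpiLC and E9.5c5 FR10 overlapping in that order. Klhl13 ran from EpiLC (61.9 ± 6.0), which overlapped d4 PGCLC (67.2 ± 3.3), to d4c7 FGF2 (220.8 ± 1.8), with E9.5c5 FR10, d4c7 FR10, FGF10 and FGF2 overlapping in that order.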

How the data were processed

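The files hold RPM values (reads scaled to the library total), deposited by the authors per gene and library, with no correction for length; the unit comes from the file naming and from the totals. Per the submitters' processing notes the tools were cutadapt 1.3, TopHat 1.4.1 and Cufflinks 2.2.0 with the build mm10; no source used here names the annotation or the counting strand. Of 34896 genes listed, 46 had no value. Genes at 10 RPM or more in at least 2 of 18 libraries were tested (9561) on log2(RPM + 1), which understates changes of low genes, with limma 3.58.1 in R 4.3.3: group means over 18 libraries, 9 residual degrees of freedom, a variance trend and Benjamini-Hochberg adjustment, called under 0.05. The script was tested on simulated data. Low values were whole multiples of 1 step for 99.6% to 99.8% of low values (tolerance 0.02 read), which gave the inferred reads; 34 to 57 values a library lay under 1 read, so edgeR was not run and voom on inferred reads was added after the data were seen. No molecular identifiers are described, so intervals cover counting error only. From each of 8 gene lists up to 4 genes per comparison were named (called genes by smallest p, otherwise up to 2 uncalled with the largest difference), and for each gene the 3 most correlated. Levels printed beside a list, such as Cdkn2a and the genes in the plot of relatives, were chosen after their values were seen. The 6 genes and the lists were chosen with earlier results of these data known.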

Additional observations from a re-analysis of the deposited data

How the results depend on the processing

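Of the 4 differences that changed sign, 3 did so with median-ratio scaling: Lrrfip1 (-0.00252) and Klhl13 (-0.238) in d4 PGCLC against EpiLC and Tcf4 (-0.106) in d4 PGCLC against ESC. Dmtf1 in E9.5c5 CsA against FR10 was -0.00492 to 0.575 with single libraries left out, the lowest without the first CsA library. The number of the 6 genes called in d4 PGCLC against EpiLC was 2, where 3784 of 9561 genes were called. It was 4 with a pseudocount of 10 RPM, with the 6 uncultured libraries alone, with array weights and without the 3 libraries that stand apart. Under these settings 4028, 5717, 5562 and 5302 of all genes were called. The number was 1 with median-ratio scaling, where 3452 of all genes were called. In d4 PGCLC against ESC it was 3, and 1 to 3 with single libraries left out, 1 being without the second ESC library. In E9.5c5 CsA against FR10 it was 0, and 0 to 4 with single libraries left out. With a pseudocount of 10 RPM, 1 gene in place of 3 was at least 1 log2 unit lower with CsA. A larger pseudocount understates the log2 differences of low genes more. Tcfl5 and Tcf4 had means of 0.598 and 5.35 RPM in d4c7 CsA and 9.57 and 16.2 in FR10. Cultured libraries alone called 2 genes of 9561 in FGF2 against FR10, in place of 845, and median-ratio scaling 548. In CsA against FR10, 3 genes were called, and 0 to 968 under alternatives, 968 without the 3 libraries that stand apart; in E9.5c5 cells 0 were, and 0 to 9, or 0 to 654 with single libraries left out, 654 without the first CsA library. Uncultured libraries alone called 3262, 5717 and 5350 genes in EpiLC against ESC, d4 PGCLC against EpiLC and d4 PGCLC against ESC, in place of 1525, 3784 and 3299. With the replicate block, 3 of the 6 were called in EpiLC against ESC and 3 in d4 PGCLC against EpiLC, where 1621 and 3938 of 9561 genes were. Replicate differences correlated at 0.34 between the E9.5c5 groups and from -0.03 to 0.13 elsewhere. With 2 pairs a comparison the replicate numbers were not taken as a pairing. A filter at 50 RPM left out Tcf4, Lrrfip1 and other genes, and edgeR was not run. Of 352 tested differences under alternatives, 310 kept direction and side, 27 newly passed, 11 no longer passed and 4 changed sign. Depth limits Tcf4 with FGF2 and Tcfl5 with CsA, which rest on 6 and 4 reads.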
